A study of Mus musculus with 4 samples.

Results

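The genes described here are 10 splicing regulators whose RNAs are known to stay in the nucleus with some of their introns unspliced: the SR splicing factors Srsf2, Srsf3, Srsf5, Srsf6, Srsf7 and Srsf11, the kinases Clk1, Clk2 and Clk4, and the U1-associated protein Luc7l3. They were taken by symbol, by a rule that names such genes and uses no measured value. All 10 were found among the 15746 genes of the deposited table and all 10 passed the filter on low values, which left 12150 genes for testing. The RNA came from WT hearts of adult mice. The mitochondrial fraction, labelled isolated mitochondria, and the rest fraction, labelled tissue minus mitochondria, had 2 libraries each. No other genotype and no drug were part of the comparison. Minced and trypsin-treated hearts were homogenized, debris pelleted at low speed made up the rest fraction, and the mitochondria were pelleted from the supernatant at higher speed. Only for the mitochondria is a treatment described with the detergent digitonin, which permeabilizes cholesterol-rich membranes, and with RNase A, which degrades RNA that is not enclosed. Their RNA was also fragmented for an adjusted time, so the fraction, the RNase step and the fragmentation cannot be told apart. The sources do not state whether hearts were pooled or whether equal replicate numbers mark the same animals, so p-values measure the spread between these libraries, which may be technical.

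SR proteins bind exons through RNA recognition motifs and recruit the splicing machinery through a tail rich in arginine and serine. CLK kinases phosphorylate that tail and so release SR proteins from nuclear speckles. The genes of both families are themselves controlled by splicing: part of their RNA keeps introns that are spliced late or not at all and is held in the nucleus, and part is spliced to forms that are removed by nonsense-mediated decay (NMD), the pathway that degrades mRNAs with an early stop codon. In heart muscle SR proteins are known for their part in splicing the RNAs of calcium handling and contractile proteins.

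The annotation (GENCODE M21, GRCm38) carried these alternative forms for each of the genes. All 10 had at least 1 transcript of the type retained intron and at least 1 of the type NMD, 43 and 18 transcripts in all, whereas 24.1% of the 10597 tested nuclear protein-coding genes had both kinds. In 7 of the 10 genes a complete intron between coding exons lay inside an exon of a retained-intron transcript, against 25.4% of those 10597 genes. Srsf2, Srsf11 and Luc7l3 had retained-intron transcripts but no such complete intron. The 18 introns concerned were 4 in Srsf5, 4 in Clk4, 3 in Clk1, 3 in Clk2, 2 in Srsf3 and 1 each in Srsf6 and Srsf7.

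The CLK kinases shared 1 arrangement, for which the sequences are shown. In Clk1, Clk2 and Clk4 the introns before and after exon 4 were both annotated as retained, and 2, 1 and 1 retained-intron transcripts held the stretch with both introns unspliced. Exon 4 has 91 bases in Clk1, 85 in Clk2 and 91 in Clk4, all coding. None of the NMD transcripts contained it, and 2 of 2, 1 of 1 and 2 of 3 of them joined the exons on either side of it. The remaining Clk4 NMD transcript ends within exon 3, so it does not show whether exon 4 is skipped. Each line below gives the 20 bases around the 5′ end of 1 of these introns, 5′ to 3′ on the strand of the gene, with the 9 bases of the 5′ splice site in capitals, which are the last 3 of the exon and the first 6 of the intron.
Clk1 intron 4, chr1:58419734-58420120, minus strand: agtgcaaGATGTATAGaata
Clk4 intron 4, chr11:51273169-51273559, plus strand: agagcaaGATGTATAGaata
Clk2 intron 4, chr3:89169703-89170048, plus strand: caagagcGATGTACAAgcca
Clk1 intron 3, chr1:58420212-58421082, minus strand: ttcacacGGGGTATGAgtgc
Clk4 intron 3, chr11:51272023-51273077, plus strand: gtcgcatTCGGTATGAgtgg
Clk2 intron 3, chr3:89168924-89169617, plus strand: ctcatctTCAGTGAGTgcca
These 5′ ends of intron 4 were identical in 19 of 20 bases between Clk1 and Clk4, in 9 between Clk1 and Clk2 and in 10 between Clk2 and Clk4. At the 3′ ends of intron 4, which are not shown, the numbers were 15, 16 and 14 of 20, so Clk2 did not stand apart there. Only 4 of the 9 capital letters of each of the 3 intron 4 sites matched CAGGTAAGT, the letters that pair fully with the start of U1 snRNA, and 5 of 9 matched in each of the 3 intron 3 sites.

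For contrast, 2 of the retained introns of SR factors had 5′ splice sites closer to these letters.
Srsf3 intron 4, chr17:29040814-29041206, plus strand: gccggagCAGGTAAATgttt
Srsf5 intron 2, chr12:80946721-80947310, plus strand: tggttttGTGGTAAGTactt
These matched in 8 and 7 of 9 bases. Matches varied within both families, as Clk4 intron 8 also matched in 7 and Srsf6 intron 2 in only 5. Over the 18 introns the median was 6.0 of 9. The annotation held 6917 retained introns between coding exons, and the 6826 that begin with GT had the same median of 6 (quartiles 5 and 7). The start GTAAGT, searched on the gene's strand only, was present in 4 of the 18 (22.2%) and in 9.77% of the 6826 retained introns that begin with GT. The introns with this start were Srsf5 intron 2, Clk1 intron 6 and Clk4 introns 7 and 8. The matches describe letters only. The deposited values are sums per gene over its exons and do not separate spliced from unspliced forms.

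**Figure D1:**
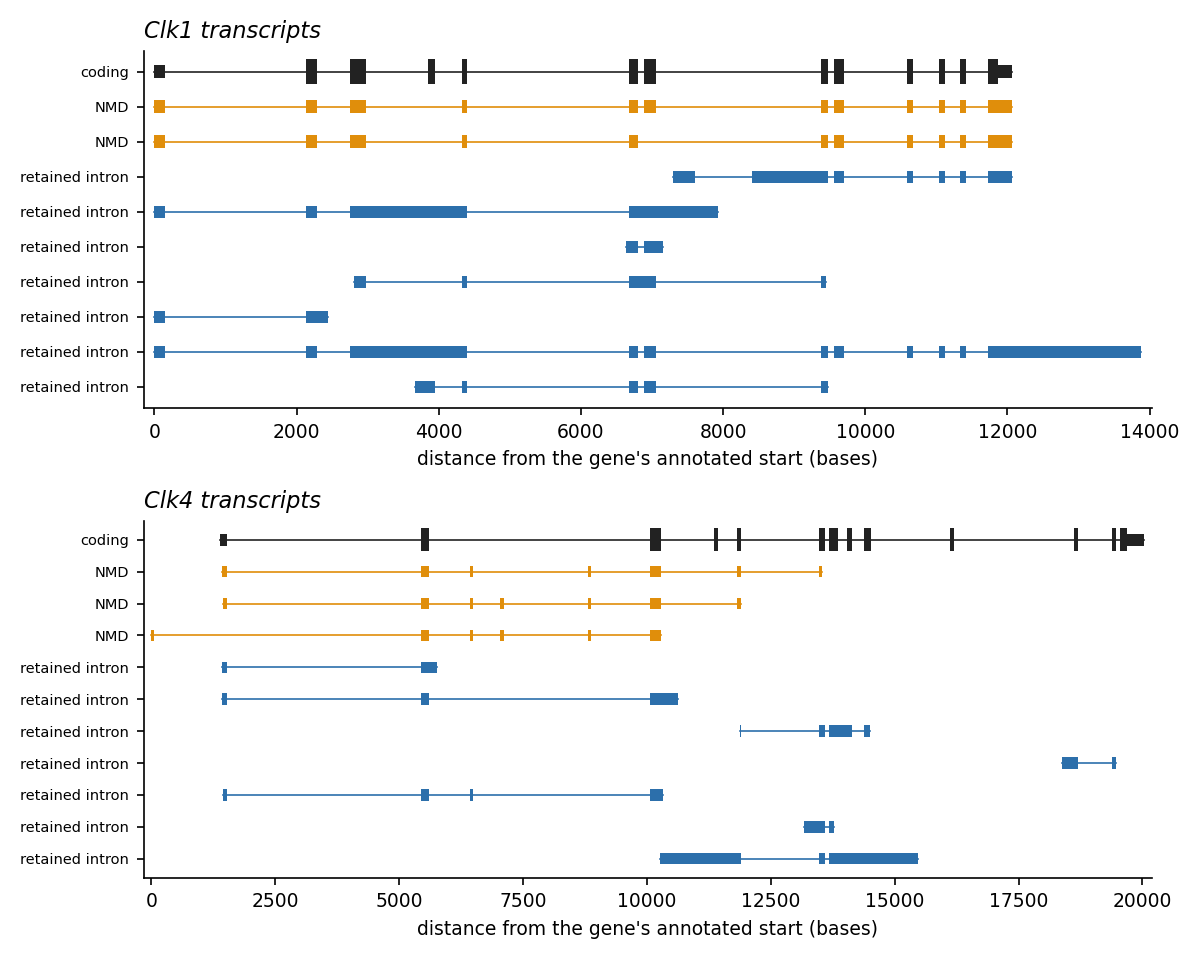
Annotated transcripts of Clk1 (top) and Clk4 (bottom), drawn to scale by distance in bases from the annotated start of the gene. Boxes are exons and lines introns; black marks the principal coding transcript with coding parts taller, orange the NMD transcripts and blue the retained-intron transcripts. The blue boxes that bridge exons 3 to 5 in 2 Clk1 transcripts and 1 Clk4 transcript hold introns 3 and 4 unspliced.

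Depth differed strongly between the fractions. The deposited values are read counts divided by a size factor and rounded, called normalized counts, and the spacing of the values put the worth of 1 read at 3.87 and 2.55 normalized counts in the mitochondrial replicates, but at 0.264 and 0.365 in the rest replicates. The mitochondrial chromosome took 93.5% to 97.6% of the mitochondrial and 63.2% to 67.5% of the rest libraries, which left about 1150000 to 2080000 reads on other genes against about 7630000 to 9680000. A level of 3 reads thus corresponded to 7.65 to 11.6 normalized counts in the mitochondrial and 0.793 to 1.10 in the rest libraries. Behind the 10 genes together stood about 324 and 445 mitochondrial reads and about 6505 and 4491 rest reads. Marker genes of cardiomyocytes summed to between 295604 and 561564 normalized counts per library, and those of endothelial, fibroblast, erythroid and leukocyte cells to between 50 and 5659.

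The genes of the CLK kinases had lower values in both mitochondrial libraries than in either rest library, as did 33.4% of all tested genes. Clk4 (ENSMUSG00000020385) lies on the plus strand at chr11:51261730-51281766 and Clk1 (ENSMUSG00000026034) on the minus strand at chr1:58410189-58424066 (GRCm38). Here and below, the values of mitochondrial replicates 1 and 2 stand before those of rest replicates 1 and 2. Clk4 had 39 and 36 against 117 and 109 normalized counts. The mitochondrial values lay close together and far below the rest values. The difference was -1.57 ± 0.22 on the log2 scale of the normalized count plus 1 (SE, n = 2 libraries per fraction), and Clk4 was the 1 gene of the 10 that fell (limma, adjusted p = 0.0469). The call was lost without any 1 of the 4 libraries, where the difference was between -1.62 and -1.51 and the adjusted p between 0.0523 and 0.526 in limma, and also with a pseudocount of 0.1 (limma, adjusted p = 0.0579) or without the mean-variance trend (limma, adjusted p = 0.0798). Turned back from the log2 scale, the difference put the mitochondrial level at 33.8% of the rest level. Behind the mitochondrial values stood 24 reads, for which counting error alone gave a ratio of 0.325 with a 95% interval from 0.207 to 0.487 (exact binomial).

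Clk1 had 128 and 122 against 267 and 262 normalized counts. Replicates of either fraction differed little, and the fractions did not overlap. The difference was -1.08 ± 0.172 (SE, n = 2 per fraction) and missed the threshold of 0.05 narrowly (limma, adjusted p = 0.0511). It passed with a block for replicate numbers (limma, adjusted p = 0.0478), as it did under 8 further alternatives given in the closing section. Clk2, the kinase with the lowest level per kilobase, had 19 and 46 against 77 and 65 normalized counts, the first 2 from about 5 and 18 reads. Its mitochondrial replicates lay farther apart than its rest replicates, and the difference of -1.23 ± 0.474 did not pass (limma, adjusted p = 0.168). It was -0.61 without mitochondrial replicate 1 and -1.84 without mitochondrial replicate 2.

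Of the SR factors, 5 of 6 had both mitochondrial values below both rest values, against 33.4% of all tested genes. None of the 6 passed the test. Srsf2, which binds exonic enhancers and resides in speckles, had 70 and 79 against 127 and 116 normalized counts. The fractions did not overlap, and the difference was -0.70 ± 0.207 (SE, n = 2 per fraction; limma, adjusted p = 0.11). Its exons share 460 bases with Mettl23 and 288 with Mfsd11 on the opposite strand, 15.6% and 9.74% of its exon bases, and whether counting used the strand is not stated in the sources. Mettl23 had 43 and 33 against 11 and 19 normalized counts, and Mfsd11 15 and 31 against 42 and 34.

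Srsf3, the smallest SR protein and a regulator of its own splicing, had 93 and 92 against 149 and 146 normalized counts. Each pair of replicates lay within 3 normalized counts. The difference was -0.67 ± 0.186 (limma, adjusted p = 0.101). Its value is uncertain, because parts of its transcripts are at least 95% identical to 5 other annotated genes, among them Gm12355 over 1298 bases (98.3%), and reads placed at several sites were left out by the authors. Srsf6 had 105 and 115 against 147 and 130 normalized counts. This SR protein is known for regulating skipped exons, and its difference of -0.33 ± 0.197 was the smallest of the SR factors without overlap (limma, adjusted p = 0.321).

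Srsf7, a zinc knuckle SR protein also known for mRNA export, had 62 and 36 against 87 and 82 normalized counts. Srsf11, known as a partner of U2AF, had 139 and 66 against 178 and 193. In both genes mitochondrial replicate 2 was the lowest library and far from replicate 1. The differences were -0.82 ± 0.332 for Srsf7 (limma, adjusted p = 0.179) and -0.94 ± 0.392 for Srsf11 (limma, adjusted p = 0.188). Without mitochondrial replicate 1 they came to -1.21 and -1.48, and without mitochondrial replicate 2 to -0.44 and -0.41.

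Srsf5 stood apart from the other SR factors. It had 387 and 311 against 313 and 306 normalized counts. The lower mitochondrial value lay between the rest values, so the fractions overlapped, and the difference was 0.16 ± 0.189 (limma, adjusted p = 0.585). Its direction depended on the scaling, with -0.70 when libraries were scaled to their total outside the mitochondrial chromosome and -3.81 when scaled to their whole total. Srsf5 has a pseudogene, Gm12966, that is 99.0% identical over 810 bases and had 31 and 36 against 18 and 27 normalized counts, so its value is uncertain too. Luc7l3, related to the yeast U1 snRNP protein Luc7, had 213 and 232 against 257 and 232 normalized counts. The higher mitochondrial and the lower rest value tied, and the difference was -0.13 ± 0.176 (limma, adjusted p = 0.632).

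**Figure D2:**
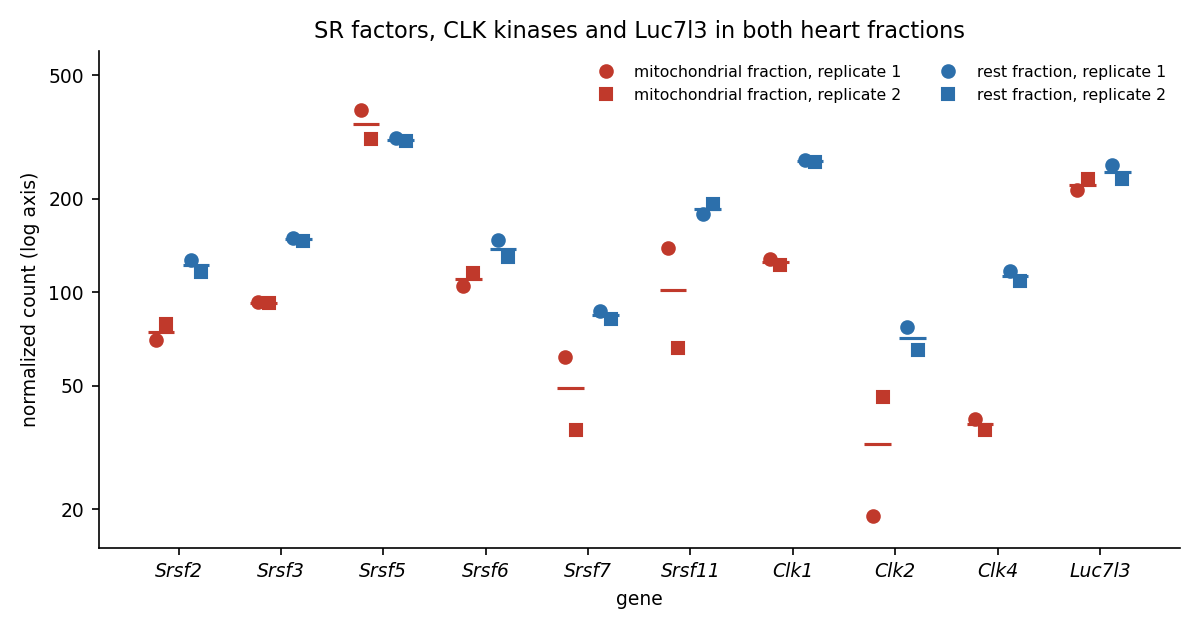
Normalized counts (log axis) of the 10 genes in each library, mitochondrial fraction in red and rest fraction in blue, circles for replicate 1, squares for replicate 2 and lines for the mean of 2 libraries. Both red values lie below both blue values in 8 genes, while the fractions overlap or tie in Srsf5 and Luc7l3. Over all tested genes, 33.4% had both mitochondrial values below both rest values.

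Counted over the 10 genes, 1 fell (Clk4), none rose and 9 did not pass, where 1.39% of all tested genes were lower (169) and 2.16% higher (262) in limma at an adjusted p under 0.05. At an unadjusted p under 0.05, 4 of the 10 (Srsf2, Srsf3, Clk1 and Clk4) were lower and none higher, against 16.2% of all tested genes lower and 14.1% higher, and the counts at this threshold given for other lists are to be read against the same shares. Both mitochondrial values lay below both rest values in 8 of the 10, against 33.4% of tested genes, and above both in none, against 27.7%. The median difference of the 10 genes was -0.76, and that of all tested genes was -0.14. Ordered by the difference, the kinases came first, with Clk4 lower than all but 8.77% of tested genes, Clk2 12.9% and Clk1 15.8%. Without mitochondrial replicate 1 this order did not hold, as Srsf11 at -1.48 and Srsf7 at -1.21 then lay below Clk1 at -1.11 and Clk2 at -0.61. Srsf11, Srsf7, Srsf2 and Srsf3 followed, with between 18.9% and 27.7% of tested genes below them, then Srsf6 at 41.8%, Luc7l3 at 50.2% and Srsf5 at 62.9%. In bulk RNA, fewer nuclei or cells in a fraction and fewer transcripts per nucleus cannot be told apart.

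The scaling decided how many of the genes were called. The median tested gene lay at -0.14 as deposited, at -0.98 with libraries scaled to their total outside the mitochondrial chromosome and at -3.93 with their whole total, so values relative to it are given as well. With the total outside the mitochondrial chromosome 9 of the 10 were called lower, all but Srsf5, but so were 31.4% of all tested genes (3819 lower and 129 higher). With the whole total all 10 were called lower, as were 98.9% of all tested genes (12022 lower and 2 higher). Relative to the median tested gene, Clk4 was at -1.43 as deposited and at -1.44 and -1.50 under these scalings, Clk1 at -0.94, -0.96 and -1.09, Srsf5 at 0.30, 0.28 and 0.12, and Luc7l3 at 0.01, -0.02 and -0.17. Only Luc7l3 changed sides by this measure, and the other 9 kept theirs under these 3 scalings. The median of the 10 genes relative to the median tested gene was -0.62, -0.64 and -0.73.

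The proportions of the 10 genes within a library are nearly independent of its scaling. As log2 of the normalized count plus 1 minus the mean over the 10 genes of the same library, Clk4 was at -1.23 and -1.28 in the mitochondrial and at -0.41 and -0.43 in the rest libraries. Against this mean Clk4 was thus lower in both mitochondrial libraries. Clk1 was at 0.46 in both mitochondrial libraries and at 0.77 and 0.83 in the rest, also without overlap. Srsf5 was at 2.05 and 1.80 against 1.00 and 1.06, Luc7l3 at 1.19 and 1.38 against 0.72 and 0.66, and Srsf6 at 0.17 and 0.37 against -0.08 and -0.17. These 3 genes lay higher against this mean in both mitochondrial libraries, and Srsf3 did so by 0.06 on average. The mean is one of log2 values, so a higher place against it is not a larger share of the summed counts. Srsf2, Srsf7, Srsf11 and Clk2 overlapped between the fractions.

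**Figure D3:**
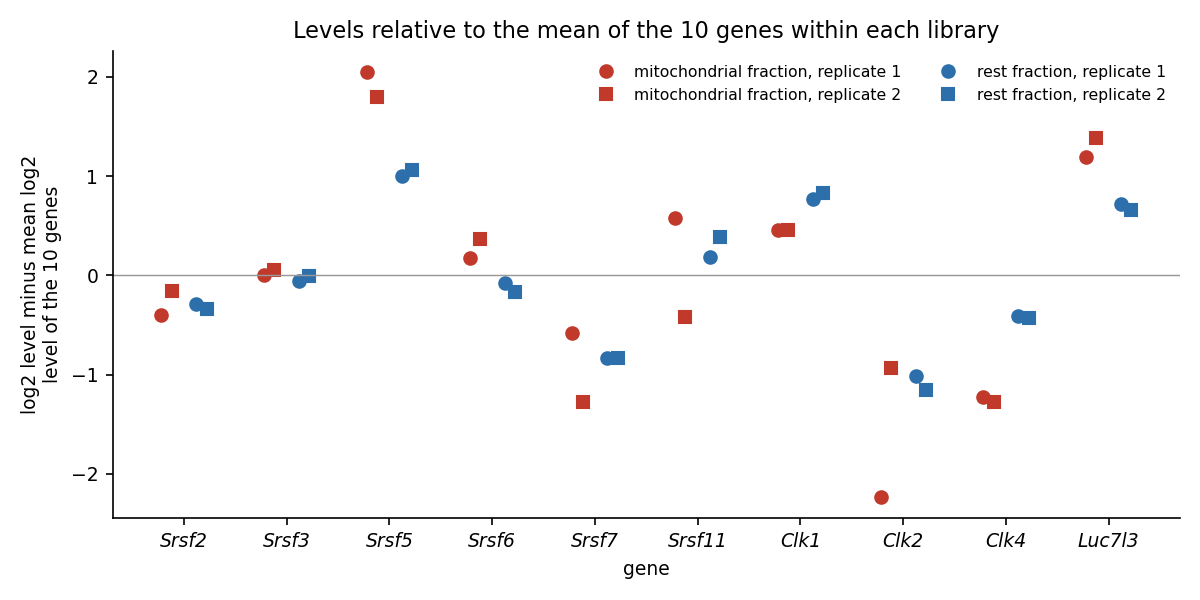
Level of each gene relative to the mean of the 10 genes in the same library, on a log2 scale of the normalized count plus 1, with the mitochondrial fraction in red, the rest fraction in blue, circles for replicate 1 and squares for replicate 2. Clk1 and Clk4 are lower and Srsf5, Srsf6 and Luc7l3 higher in both red points, and Clk2 has the widest spread between mitochondrial replicates, from -2.23 to -0.93.

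Levels were compared between genes per kilobase of the principal coding transcript. In the rest libraries Srsf5 was highest with 197 ± 3.16 normalized counts per kilobase (SD, n = 2), followed by Clk1 with 147 ± 1.97. Luc7l3 with 72.5 ± 5.24 and Srsf2 with 64.0 ± 4.10 lay next and differed by less than the sum of their SDs. Srsf11, Clk4 and Srsf3 lay between 56.3 and 59.7 and were within their spread of each other, as were Srsf6, Srsf7 and Clk2 between 33.0 and 39.3. In the mitochondrial libraries Srsf5 was again first with 223 ± 34.3, and Clk1 with 69.6 ± 2.36 and Luc7l3 with 66.0 ± 3.98 came next and did not differ beyond their spread. Srsf2, Srsf3, Srsf11 and Srsf6 lay between 31.2 and 39.2, and Srsf7 had 21.4 ± 8.04. Clk4 with 19.2 ± 1.09 and Clk2 with 15.1 ± 8.86 were last and within their spread of Srsf7. Per kilobase of all annotated exons, retained introns included, Srsf5 stayed highest in the rest libraries at 77.6. Srsf2 at 41.1 then lay above Luc7l3 at 33.6 and Clk1 at 32.5. Srsf6 at 28.8 and Srsf7 at 23.8 lay above Srsf11 at 22.0, Clk4 at 19.5 and Srsf3 at 18.7. The order below Srsf5 thus depended on the length taken.

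The difference between the fractions moved with transcript length over all genes. Across the 10597 tested nuclear protein-coding genes divided into 5 equal classes of length, the median difference was 0.59 in the shortest class (243 to 1889 bases) and 0.03, -0.18, -0.37 and -0.56 in the following classes, with a Spearman rho of -0.43 across genes, which are not independent replicates. The 10 genes ranged from 1568 bases in Srsf5 to 3527 in Srsf6 and fell into the first 3 classes. Srsf6 and Luc7l3 were longer than the median of 3294 bases and the other 8 shorter. Compared with their own class, 9 of the 10 lay below the median. These were Clk1 and Srsf5 in the first class, Clk2, Clk4, Srsf2, Srsf3 and Srsf7 in the second, and Srsf6 and Srsf11 in the third, with Luc7l3 above. The part of length in the differences of single genes was not tested. The share of exon bases that lies in introns of the coding transcript was above the median of 21.2% in 9 of the 10 genes, up to 66.9% in Srsf3 and with 9.01% in Luc7l3. Over all genes this share and the difference had a rho of -0.02. Genes with and without a complete retained coding intron had medians of -0.20 and -0.12.

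**Figure D4:**
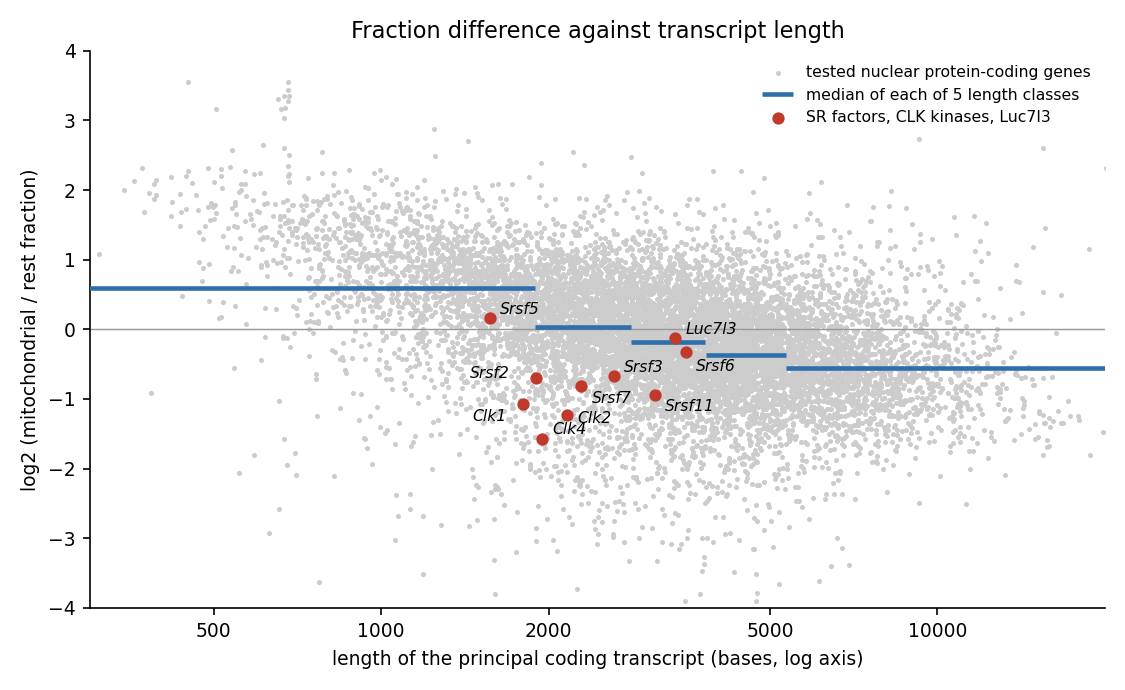
Log2 difference between the mitochondrial and the rest fraction against the length of the principal coding transcript (log axis) for 10597 tested nuclear protein-coding genes (grey), of which 19 lie outside the axes. Blue lines are the medians of the 5 length classes, and the 10 genes are in red, with Clk4, Clk2 and Clk1 farthest below the line of their class.

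A transcript inside an intron of Srsf11 was measured on its own. Gm43362, an unconfirmed single-exon transcript on the same strand (chr3:158033940-158036409, GRCm38), had 13 and 14 normalized counts in the rest libraries, about 49 and 38 reads. It was listed at 0 in both mitochondrial libraries, where 3 reads correspond to 11.6 and 7.65 normalized counts, so it was at least 1.40-fold lower against the mean of these floors over the fraction. Srsf11 itself was read in both mitochondrial libraries, with about 36 and 26 reads.

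Most other genes of the SR and CLK families had smaller differences, and of the calls given for other lists none was kept in limma when any 1 library was left out. Of the other SR and Tra2 genes 6 were tested and none was called, with 2 lower at an unadjusted p under 0.05 and a median of -0.47. Srsf12 is not analysed here. Tra2a, a splicing activator related to SR proteins, had 43 and 31 against 115 and 88 normalized counts (-1.44 ± 0.293; limma, adjusted p = 0.0634), and its paralog Tra2b had 89 and 46 against 134 and 153 (-1.15 ± 0.367; limma, adjusted p = 0.126). Of these 6 genes, Tra2a and Tra2b came closest to Clk1, Clk2 and Clk4 in size of the difference. Srsf1 had 205 and 117 against 215 and 214 and Srsf4 19 and 28 against 30 and 35, both at -0.47. Srsf10 had 81 and 120 against 99 and 105 (-0.05) and Srsf9 31 and 33 against 31 and 29 (0.09), with overlapping fractions.

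Against 1.39% of all tested genes, 1 of the 6 other SR protein kinases fell. This was Prpf4b, a kinase of the spliceosome, with 112 and 125 against 271 and 261 normalized counts (-1.16 ± 0.18; limma, adjusted p = 0.0489). Clk3, the remaining CLK kinase, had 46 and 46 against 71 and 52 (-0.39 ± 0.27; limma, adjusted p = 0.374), so that both mitochondrial values were the lower ones but by less than in Clk1, Clk2 and Clk4. The difference between Clk3 and the other kinases was not tested. The muscle-specific kinase Srpk3 had 50 and 54 against 60 and 39 (0.10), with overlap. The median of the 6 was -0.42.

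Of 5 U1 snRNP and LUC7 genes none was called, 2 were lower at an unadjusted p under 0.05 and the median was -0.60. Luc7l, a paralog of Luc7l3, had 62 and 61 against 104 and 94 normalized counts (-0.68 ± 0.21), and Snrpa, a protein of the U1 snRNP, 43 and 41 against 33 and 31 (0.38 ± 0.261). Of 14 SR-related and speckle protein genes 1 fell, Srrm2, a scaffold of speckles, named after its values were seen, with 569 and 418 against 1637 and 1281 (-1.57 ± 0.239; limma, adjusted p = 0.0487). The median of the 14 was -0.38, and over all tested genes 1.39% were called lower. Son, another speckle scaffold with a long mRNA of 8399 bases, had the most negative value at -1.73 ± 0.287 (limma, adjusted p = 0.0524), and Pnn the largest at 0.68 ± 0.233.

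Of 8 other genes known for detained introns, 3 fell, against 1.39% of all tested genes. These were Ogt, Ddx17 and Nktr, the latter 2 named after their values were seen. Ogt, the enzyme that adds O-GlcNAc to nuclear and cytoplasmic proteins, had 85 and 89 against 403 and 367 normalized counts (-2.13 ± 0.177; limma, adjusted p = 0.0427). Ddx17, an RNA helicase, had 178 and 158 against 509 and 412 (-1.44), and Nktr, a cyclophilin with an SR domain, 132 and 115 against 318 and 374 (-1.48). All 8 values were negative, also relative to the median tested gene and under each scaling tried, and their median was -1.42. The smallest difference was that of Oga, the enzyme that removes O-GlcNAc, at -0.15 with overlapping fractions. These genes are longer than the 10, with a median transcript length of 4146 bases against 2221.

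The medians of 2 further lists of splicing genes, for hnRNP and Sm proteins, lay on the other side of the median tested gene. Of 24 hnRNP genes none was called, 5 were higher and 2 lower at an unadjusted p under 0.05 (14.1% and 16.2% of all tested genes), and the median was 0.06. Hnrnpa1, a repressor of splice sites, had 372 and 347 against 186 and 189 normalized counts (0.93 ± 0.166; limma, adjusted p = 0.0551), and Ptbp1 had 12 and 56 against 68 and 71 (-1.37 ± 0.737). Of 8 listed genes for Sm proteins, the ring on which snRNPs are built, 6 were tested, none was called and 5 were higher at an unadjusted p under 0.05. Their median was 1.19, from 0.77 in Snrpb to 1.78 in Snrpe, and their median transcript length was 1290 bases. The median of the Sm genes turned to -2.67 with the whole total and was 0.35 with the total outside the mitochondrial chromosome, but relative to the median tested gene all 6 were above it under each of these scalings, and so was the hnRNP median, by 0.20, 0.18 and 0.05, although that median itself turned to -0.80 and -3.87.

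Nuclear long noncoding RNAs had a more negative median than the 10 genes. Of 5 tested, 1 fell, Lncpint, with 4 and 15 against 234 and 205 normalized counts, the first of these below the level of 3 reads (-4.62 ± 0.602; limma, adjusted p = 0.0427). Over all tested genes 1.39% were called lower. The median of the 5 noncoding RNAs was -2.23 and the smallest difference was that of Meg3 at -0.57. Beside the 10 genes, markers of other cells moved with the fractions as well. All 4 endothelial and all 4 erythroid markers were lower in both mitochondrial than in both rest libraries, against 33.4% of all tested genes. All 4 fibroblast and 3 of 4 leukocyte markers were higher in both, against 27.7%. The 6 cardiomyocyte markers were split, with 2 lower and 3 higher in both. None of these markers was called in limma. Of the endothelial, erythroid, fibroblast and leukocyte markers, 4, 0, 1 and 1 were past an unadjusted p under 0.05 in limma. Endothelial markers summed to 1402 and 1214 against 2395 and 2173, fibroblast markers to 5659 and 2415 against 1521 and 2094, erythroid markers to 50 and 323 against 781 and 412 and leukocyte markers to 453 and 286 against 177 and 257, and no marker of these lists was at 0 in any library. The part of cell composition in the differences of the 10 genes was not tested.

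**Figure D5:**
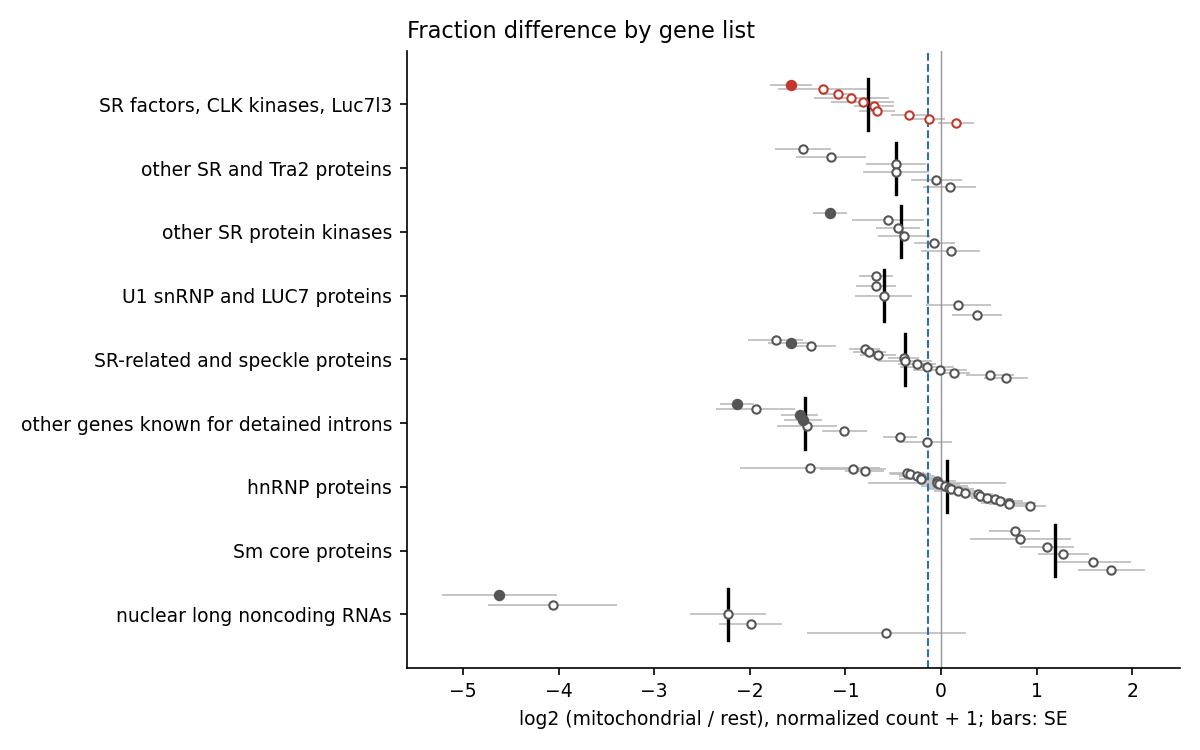
Log2 difference between the fractions for every tested gene of each list, with the standard error as a grey bar, filled points for genes at an adjusted p under 0.05 in limma and black lines for list medians. The dashed blue line is the median of all tested genes at -0.14; the 10 genes in red have their median at -0.76, between the other genes known for detained introns at -1.42 and the hnRNP proteins at 0.06.

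The genes most like the group over the 4 libraries were sought among 5227 tested protein-coding genes with a mean above 50 normalized counts, by the root mean square distance of their centred log2 values to the mean profile of the 10 genes. Ssh1, a phosphatase of cofilin, was closest at 0.00741, with 62 and 59 against 103 and 97 normalized counts. Foxp1, a transcription factor, followed at 0.0199, and then Tom1l2 at 0.0219, Zfp397 at 0.0227 and Zfp292 at 0.0272. Their differences lay between -0.71 and -0.78 and none was called. Within the group, Srsf3 at 0.0416 and Srsf2 at 0.0879 were nearest to the mean profile, while Clk2 at 0.526, Srsf5 at 0.456 and Clk4 at 0.418 were farthest. With the 10 genes counted in, 16 genes lay closer to this profile than Srsf3, 94 closer than Srsf2 and 3202 closer than Clk2.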

How the data were processed

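RNA-seq of the mitochondrial and the rest fraction of mouse heart was analysed, with 2 libraries each grouped by the labels. The authors trimmed single-end reads with Trimmomatic, aligned them to mm10 with STAR, counted exon-overlapping reads per gene with featureCounts, excluding reads of several genes or sites, and scaled them with DESeq2. The submitters' processing notes name Trimmomatic 0.39, STAR 2.7.10a, featureCounts 2.0.2 and DESeq2 1.30.1, and the study's methods name other versions of the last 3. Each deposited signal value is a read count that the authors divided by the size factor of its library and rounded, so that a test of whole counts could not be used.

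Log2 of the normalized count plus a pseudocount of 1 was tested in limma 3.58.1 (R 4.3.3) with a mean-variance trend on genes that reached 10 normalized counts in 2 or more libraries, without a block. P-values were two-sided and adjusted by the Benjamini-Hochberg method over all tested genes, with a threshold of 0.05. The rule for the 10 genes uses no measured value, but the genes, the lists and the tests were chosen with earlier results of these data known. Named were the 10 genes, the rest of the SR, Tra2 and CLK families, the extremes of each list and the 5 most similar profiles. Approximate reads came from the spacing of the values. Intervals are at 95% and, like the level of 3 reads, cover counting error only. Steps were tested on simulated data. There limma recovered 61.1% of genes changed 4-fold, with 0 false calls. The spacing passed the margin set for it in 7 of 10 simulated libraries, with an error of at most 0.0230% in those 7. Of the 15746 genes, 15736 were found in GENCODE M21, whose transcripts gave the sequences. The principal transcript was chosen by APPRIS rank. Near copies (at least 95% identity over at least 75 bases) were sought with blastn 2.17.0. Scripts ran in Python 3.11.15 with pandas 2.3.3, numpy 2.4.6, matplotlib 3.10.9 and scipy 1.17.1.

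Alternatives were other scalings, filters and pseudocounts, a replicate block, no trend and each library left out. A limma voom fit on approximate reads was added after the data were seen.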

Additional observations from a re-analysis of the deposited data

How the results depend on the processing

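Of 150 values (10 genes, 15 alternatives), 119 kept direction and side of the threshold. Over all tested genes, 169 lower and 262 higher became 419 and 666 with size factors over nuclear protein-coding genes, 12022 and 2 with the library total, 3819 and 129 with the total outside the mitochondrial chromosome, 630 lower without a filter, 670 and 790 above a mean of 50, 0 and 0 with a pseudocount of 0.1, 580 and 536 with one of 10, 309 and 470 with a replicate block, 24 higher without a trend, and 719 and 1082 with voom on approximate reads, chosen after seeing the data. Of the 10 genes, 2 were lower, Clk1 and Clk4, with recomputed size factors, size factors over protein-coding genes, no filter, a mean above 50, a pseudocount of 10, the replicate block and voom, 10 with the library total, 9 with the total outside the mitochondrial chromosome and 0 with a pseudocount of 0.1 or without a trend. None was called higher under any alternative.

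Leaving out a library gave 0 to 0 calls over all genes, lower or higher, and 0 to 0 among the 10 genes, with the lone library assumed to vary like the other fraction. The median of the 10 genes relative to the median tested gene, -0.62, was -0.50 without a filter and from -0.68 to -0.44 without 1 library. Srsf5 reversed from 0.16 to -3.81 with the library total and to -0.70 with the total outside the mitochondrial chromosome. The replicate block changed no other call among the 10 genes than that of Clk1, and whether equal numbers pair the libraries is not known: the replicate differences of the 2 fractions had a correlation of 0.13 across genes. Depth limits the mitochondrial values, where single genes had about 5 to 122 reads.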
